A study of Mus musculus with 6 samples.

Results

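The 9 genes described here encode the B7 family of costimulatory ligands (Cd80, Cd86, Cd274, Pdcd1lg2, Icosl and Cd276), the maturation marker CD83, and the ligand and receptor of the CD200 axis (Cd200 and Cd200r1). They were chosen by name, as a family of signals between antigen-presenting cells and T cells, with earlier results of these data known. All 9 were measured, among 19938 genes in all. Each was read from a probe set annotated to that gene alone. Cd80 had a pair of them, of which the brighter was kept. The arrays profiled total RNA of sorted mouse bone marrow cells in 3 populations, with 2 biological replicates of each. GM-BMDC, labelled as dendritic cells, were the MHCIIhighF4/80low fraction of marrow kept in GM-CSF at 25 ng/ml throughout a culture of 7 days. GM-BMM, labelled as macrophages, were the MHCIIlowF4/80high fraction of marrow grown in the same way. M-BMM were CD11b+F4/80+ macrophages of marrow grown for the same time in 20% L cell conditioned medium, whose cells secrete M-CSF. All donors were C57BL/6J mice, for which the labels give the sex as male and an age of 6 to 10 weeks. No further stimulus is named in the labels.

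A T cell that meets its peptide on an MHC molecule also needs signals from ligands on the presenting cell. CD80 and CD86 bind CD28, which activates the T cell, and CTLA-4, which restrains it. PD-L1 (Cd274) and PD-L2 (Pdcd1lg2) bind the inhibitory receptor PD-1, ICOS ligand (Icosl) binds ICOS, and the receptor of B7-H3 (Cd276) is debated. Dendritic cells raise CD80, CD86 and CD83 when they mature, and CD83 keeps MHC class II and CD86 on the surface by opposing the ubiquitin ligase MARCH1. CD200 is a surface ligand that dampens myeloid cells through CD200R1, which signals through the adaptor DOK2.

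Values are RMA log2 signals, on which a step of 1 is a doubling of signal, and the level of a gene is compared only with its own level in other arrays. The files mark no background, so signals under 5.04, the 25th percentile of all values, are called low. Array medians lay between 6.18 and 6.28. Populations were compared with limma on all 6 arrays and all genes, two-sided, and a gene was called at a Benjamini-Hochberg adjusted p under 0.05. Errors of differences are limma standard errors for means of 2 arrays per population. Their spread is pooled over all populations and moderated toward that of other genes. A gene therefore has the same error in every comparison, whatever the gap between the replicates compared. The labels call the replicates biological without saying whether they are separate animals or cultures, and p-values reflect the spread between the arrays. A fit that leaves out 1 array of a population takes the spread from the other populations, which the array left is assumed to share. Of 10 dendritic cell markers, 10 were higher in GM-BMDC than in GM-BMM and 10 were higher than in M-BMM. Of 9 macrophage markers, 6 were lower in GM-BMDC than in GM-BMM and 4 lower than in M-BMM. Of all genes, 4.69% and 7.76% were higher in GM-BMDC in these comparisons, and 5.74% and 8.9% lower. The macrophage list holds Adgre1, whose protein was a sort gate, and the dendritic cell list holds the MHC class II gene H2-Eb2. Both lists were chosen with earlier results of these data known. Part of these counts may thus follow from the sort, and they do not test the identity of the populations independently. The label male did not hold for every array. Xist, made from the inactive X chromosome of female cells, was at 11.66 and 10.68 in GM-BMDC, 11.58 and 4.93 in GM-BMM and 4.53 and 4.80 in M-BMM. The Y-linked Eif2s3y was at 3.94 in replicate 1 of GM-BMDC and 3.66 in replicate 1 of GM-BMM, and between 8.80 and 9.32 in the other 4 arrays, so that GM-BMDC replicate 2 carried both RNAs. Replicates of GM-BMDC and of GM-BMM thus differed in sex-linked RNA. Counts are also given without both GM-CSF arrays numbered 1, a fit that keeps the high Xist of GM-BMDC replicate 2 and so does not balance the populations for it. As these are bulk samples, more cells of a type and more RNA per cell cannot be told apart.

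**Figure D1:**
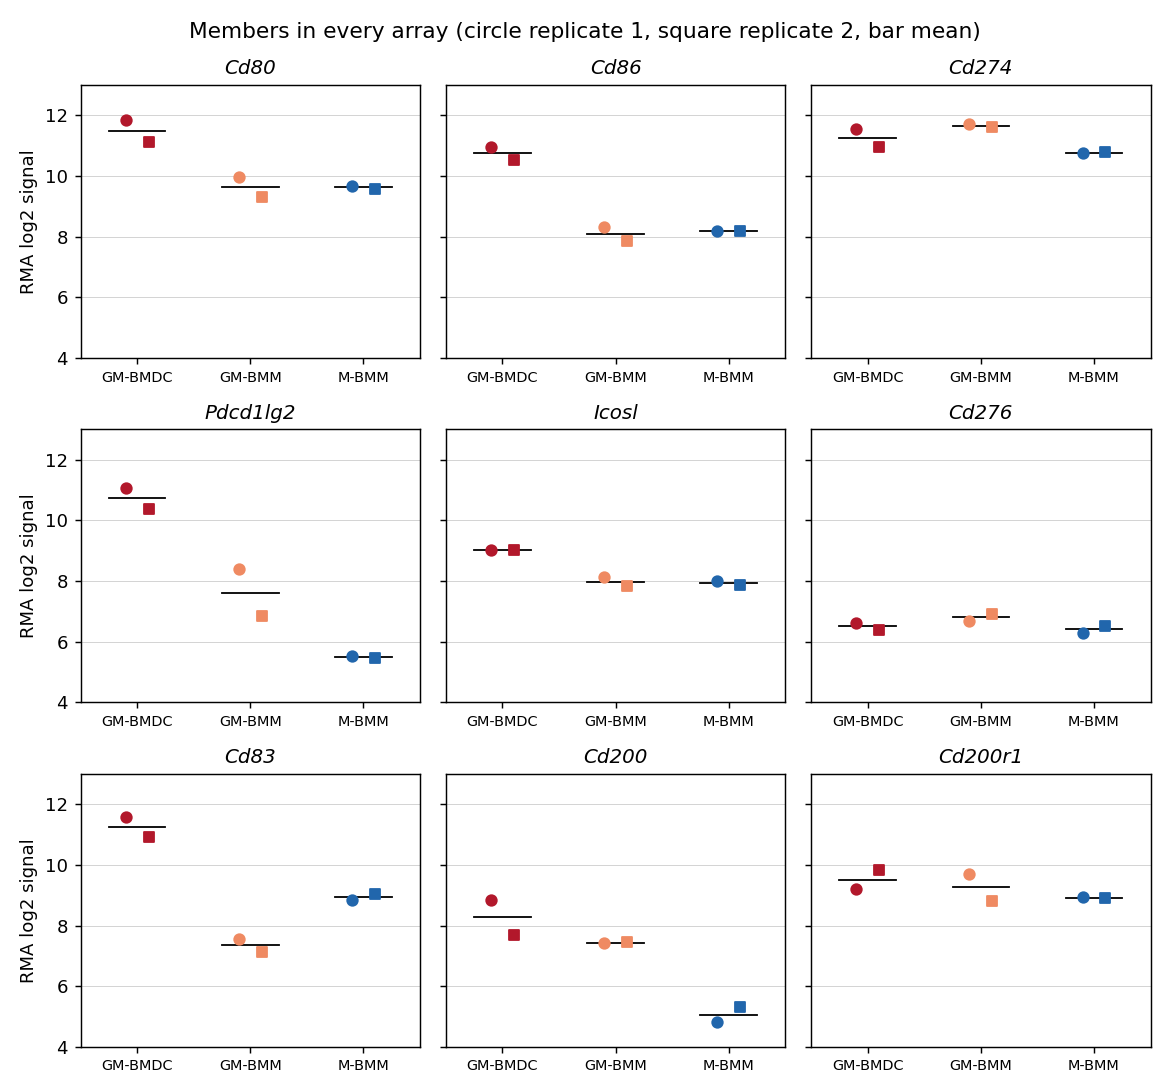
RMA log2 signal (vertical axis, common to all panels) of the 9 genes in GM-BMDC, GM-BMM and M-BMM, with a circle for replicate 1, a square for replicate 2 and a bar for the mean of 2 arrays. Cd80, Cd86, Icosl and Cd83 stand apart in GM-BMDC, Pdcd1lg2 has a mean of 5.50 in M-BMM, and Cd276 spans 0.62 log2 units over the 6 arrays.

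Of the 9 genes, 5 were called higher in GM-BMDC than in GM-BMM and 0 lower, where 10.4% of all genes were called, 4.69% as higher and 5.74% as lower. Against M-BMM, 6 were higher in GM-BMDC and 0 lower, where 16.7% of all genes were called, 7.76% as higher and 8.9% as lower. In GM-BMM against M-BMM, 3 were higher and 1 lower, where 6.19% of all genes were called, 3.62% as higher and 2.57% as lower. The arrays did not overlap for 8 of the 9 genes between GM-BMDC and GM-BMM (51.3% of all genes), 8 between GM-BMDC and M-BMM (56.4%) and 5 between GM-BMM and M-BMM (49.8%). The median log2 difference of the 9 genes was 1.05 for GM-BMDC over GM-BMM, 1.86 for GM-BMDC over M-BMM and 0.33 for GM-BMM over M-BMM, beside 0.02, -0.0024 and -0.02 over all genes. Cd80, Cd86, Pdcd1lg2, Icosl and Cd83 were the 5 genes higher in GM-BMDC than in both macrophage populations, as were 3.61% of all genes, and 0 of the 9 were lower than in both, as were 3.37%. Pdcd1lg2 and Cd200 were the 2 genes higher in both GM-CSF populations than in M-BMM (2.01% of all genes). Pdcd1lg2 and Cd83 passed in all 3 comparisons (1.21% of all genes), and Cd276 and Cd200r1 in none (79.3%). The comparisons share populations, so their counts are not independent, and the 9 genes were chosen with earlier results of these data known. With both GM-CSF arrays numbered 1 left out, each of the 15 calls was kept. The counts were then 6 higher and 1 lower in GM-BMDC than in GM-BMM, 7 and 0 than in M-BMM, and 3 and 1 in GM-BMM against M-BMM, from a fit with 1 array per GM-CSF population that is assumed to vary like the M-BMM arrays. In GM-BMM against M-BMM, 0 were higher and 0 lower without M-BMM replicate 1, and 0 and 0 without replicate 2, so that all 4 calls of this comparison were lost in either fit.

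**Figure D2:**
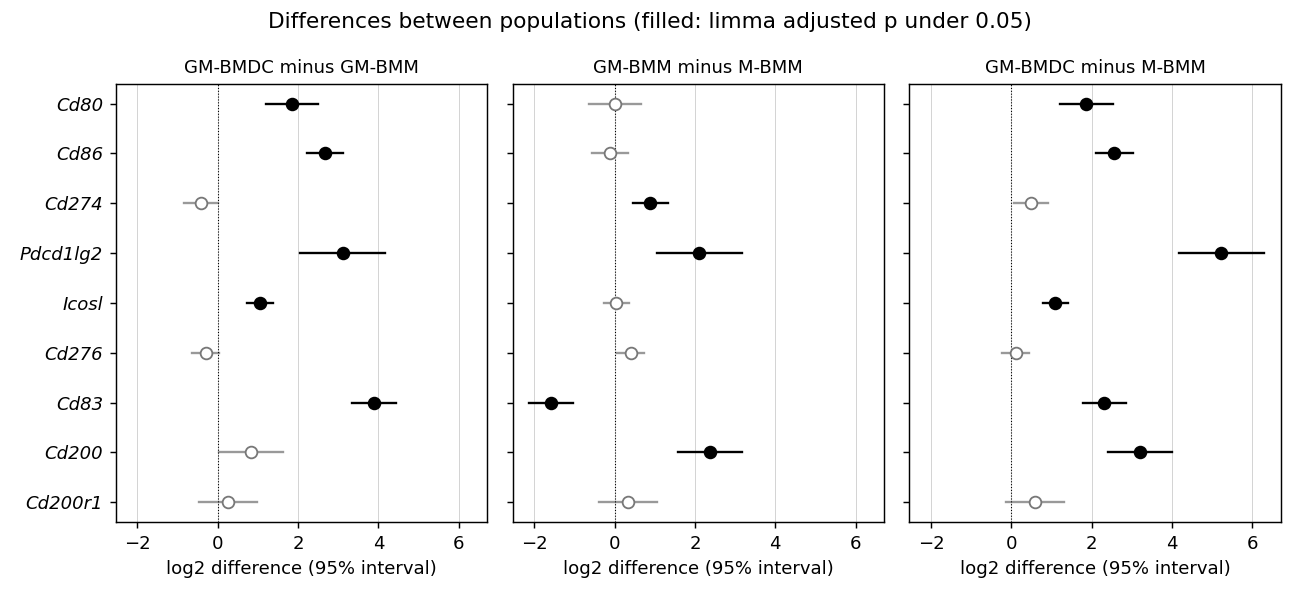
Log2 difference (horizontal axis) of each gene between populations, with the 95% interval from limma, where filled points had an adjusted p under 0.05. Pdcd1lg2 reaches 5.22 for GM-BMDC over M-BMM, and Cd83 in GM-BMM over M-BMM, at -1.58, is the only filled point left of 0.

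The CD28 and CTLA-4 ligands were higher in GM-BMDC than in either macrophage population. Cd80 measured 11.86 and 11.12 in GM-BMDC, 9.96 and 9.30 in GM-BMM, and 9.67 and 9.58 in M-BMM. Both GM-BMDC arrays lay above the other 4, and the GM-BMM arrays fell on either side of M-BMM. The gene was 3.62-fold higher in GM-BMDC than in GM-BMM (log2 difference 1.85 ± 0.28, limma adjusted p = 0.00663) and 3.64-fold higher than in M-BMM (1.86 ± 0.28, limma adjusted p = 0.00397). GM-BMM minus M-BMM was 0.01 (95% interval -0.64 to 0.66, limma adjusted p = 0.993). The other Cd80 probe set measured 11.32 and 10.42 in GM-BMDC, 9.07 and 8.21 in GM-BMM, and 8.76 and 8.495 in M-BMM. The pair of probe sets, which share the RNA of the 6 arrays, had a Pearson r of 0.999. In a fit over all probe sets the other one was 4.7-fold higher in GM-BMDC than in GM-BMM (2.23 ± 0.39, limma adjusted p = 0.0429).

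Cd86 gave a larger difference with a smaller error. Its signals were 10.96 and 10.53 in GM-BMDC, 8.31 and 7.85 in GM-BMM, and 8.19 and 8.18 in M-BMM. GM-BMDC again stood apart, and both M-BMM values fell between the GM-BMM replicates. GM-BMDC exceeded GM-BMM by 6.37-fold (log2 difference 2.67 ± 0.19, limma adjusted p = 0.000381), rank 65 from the top of all genes, and M-BMM by 5.91-fold (2.56 ± 0.19, limma adjusted p = 0.000249). GM-BMM minus M-BMM was -0.11 (95% interval -0.57 to 0.35, limma adjusted p = 0.849). Cd80 and Cd86 both lie on chromosome 16 in RefSeq, and over the 6 arrays, which share groups, their Pearson r was 0.985.

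The PD-1 ligand genes are neighbours on chromosome 19 in RefSeq, with no other protein-coding gene between them, and their signals ran differently over the populations. The 250 bases before the RefSeq start of each are shown because the genes are neighbours with unlike profiles. The stretches, of build GRCm38.p6, are chr19:29410669-29410918 on the plus strand for Pdcd1lg2 and chr19:29367188-29367437 on the plus strand for Cd274. Capitals mark matches to 7 motifs searched on both strands. These were NF-kappaB (GGG and CC around 5 bases of any kind), an ETS-IRF composite (GGAA and GAAA around 2), interferon response (GAAA and GAAA around 2), STAT (TTC and GAA around 3), STAT6 (TTC and GAA around 4), AP-1 (TGA and TCA around 1) and CRE (TGACGTCA).
Pdcd1lg2: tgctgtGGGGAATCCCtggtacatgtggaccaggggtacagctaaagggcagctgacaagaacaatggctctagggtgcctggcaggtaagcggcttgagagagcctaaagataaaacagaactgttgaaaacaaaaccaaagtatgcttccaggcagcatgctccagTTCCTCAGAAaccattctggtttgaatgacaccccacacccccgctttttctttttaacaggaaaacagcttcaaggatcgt
Cd274: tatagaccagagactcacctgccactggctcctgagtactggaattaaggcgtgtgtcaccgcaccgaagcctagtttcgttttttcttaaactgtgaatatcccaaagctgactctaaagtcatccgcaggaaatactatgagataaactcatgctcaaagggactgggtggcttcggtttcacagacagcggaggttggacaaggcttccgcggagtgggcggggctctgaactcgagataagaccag
The Pdcd1lg2 stretch held an NF-kappaB match, GGGGAATCCC, from base -244 to -235 relative to the start and a STAT6 match, TTCCTCAGAA, from -82 to -73. These matches do not overlap each other, and none of the 7 motifs matched in the Cd274 stretch. The NF-kappaB letters occur in 45.8% of all 32851 stretches of this length and the STAT6 letters in 5.85%. The other motifs occur in 2.3% (ETS-IRF), 2.98% (interferon response), 7.02% (STAT), 6.75% (AP-1) and 1.55% (CRE). A match of letters describes the sequence only.

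Pdcd1lg2, the gene of PD-L2, had the widest range of the 9 genes, 5.59 log2 units. It measured 11.06 and 10.39 in GM-BMDC, 8.38 and 6.85 in GM-BMM, and 5.53 and 5.48 in M-BMM. The 3 populations did not overlap, although the GM-BMM replicates lay 1.53 apart, where the median gap of that pair over all genes was 0.139. GM-BMDC stood 37.4-fold above M-BMM (5.22 ± 0.45, limma adjusted p = 0.000387), rank 23 from the top of all genes, and 8.63-fold above GM-BMM (3.11 ± 0.45, limma adjusted p = 0.00554). GM-BMM was 4.33-fold above M-BMM (2.11 ± 0.45, limma adjusted p = 0.0364). The M-BMM signals lay above the low mark of 5.04 but under the array medians, so both folds over M-BMM may rest on background. The log2 difference between GM-BMDC and GM-BMM was 3.88 without GM-BMM replicate 1 and 2.34 without replicate 2, and that between GM-BMM and M-BMM was 1.35 and 2.88. The call between GM-BMM and M-BMM was lost without either M-BMM array (limma adjusted p = 0.221 and 0.2315), with a trended and robust variance (0.109), with all probe sets tested (0.11) and without moderation (0.336).

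The GM-BMM array with the higher Pdcd1lg2, replicate 1, did not have the higher MHC class II signal. H2-Ab1, a class II gene, measured 13.09 and 13.17 in GM-BMDC, 10.08 and 11.27 in GM-BMM, and 5.81 and 6.35 in M-BMM. The summed linear signal of the 10 dendritic cell markers was 20264 and 16999 in GM-BMDC, 2511 and 1849 in GM-BMM and 676 and 668 in M-BMM. Within that list Ccl22, a chemokine gene, measured 7.56 and 6.41 in the GM-BMM replicates and Itgax, the gene of CD11c, 10.72 and 10.05, both higher in replicate 1. H2-Eb2 measured 5.70 and 6.07 and the growth factor receptor gene Flt3 4.93 and 5.24, both lower in replicate 1. Itgax made up most of the sum in both GM-BMM arrays, and the mean log2 signal of the list was 6.71 and 6.64 there. The part of dendritic cell RNA in the Pdcd1lg2 signal of GM-BMM was not tested.

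Cd274, the gene of PD-L1, was far above the array medians in all 3 populations and spanned 0.96 log2 units. Its signals were 11.53 and 10.97 in GM-BMDC, 11.71 and 11.61 in GM-BMM, and 10.76 and 10.78 in M-BMM. GM-BMM had the highest values and M-BMM the lowest, without overlap. GM-BMM was 1.86-fold above M-BMM (log2 difference 0.89 ± 0.18, limma adjusted p = 0.0316). That call was lost under 7 of 18 alternatives, among them leaving out either GM-BMM array (limma adjusted p = 0.128 and 0.0711) or either M-BMM array (0.206 and 0.203), while the log2 difference stayed between 0.70 and 0.95. GM-BMDC minus GM-BMM was -0.41 (95% interval -0.84 to 0.02, limma adjusted p = 0.234), and GM-BMDC minus M-BMM was 0.48 (95% interval 0.05 to 0.91, limma adjusted p = 0.13). With a single GM-BMDC array in each fit, Cd274 without GM-BMDC replicate 1 passed as lower in GM-BMDC than in GM-BMM (-0.69, limma adjusted p = 0.039), and without GM-BMDC replicate 2 as higher than in M-BMM (0.76, limma adjusted p = 0.0133).

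The gene of ICOS ligand differed less but with little spread. Icosl measured 9.02 and 9.03 in GM-BMDC, 8.13 and 7.82 in GM-BMM, and 8.004 and 7.86 in M-BMM. The GM-BMDC arrays were above the rest by more than any gap between its replicates. Icosl was 2.07-fold higher in GM-BMDC than in GM-BMM (log2 difference 1.05 ± 0.14, limma adjusted p = 0.00368) and 2.14-fold higher than in M-BMM (1.097 ± 0.14, limma adjusted p = 0.0018). GM-BMM minus M-BMM was 0.05 (95% interval -0.27 to 0.37, limma adjusted p = 0.913). Cd276, the gene of B7-H3, measured 6.62 and 6.40 in GM-BMDC, 6.69 and 6.92 in GM-BMM, and 6.30 and 6.50 in M-BMM. These values lay near the array medians, and GM-BMDC overlapped M-BMM. GM-BMDC minus GM-BMM was -0.30 (95% interval -0.63 to 0.04, limma adjusted p = 0.281), GM-BMDC minus M-BMM was 0.11 (95% interval -0.23 to 0.44, limma adjusted p = 0.717) and GM-BMM minus M-BMM was 0.40 (95% interval 0.07 to 0.74, limma adjusted p = 0.175), so that none passed.

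The stretches before the starts of Cd80, which was higher in GM-BMDC, and of Cd200, which was higher in both GM-CSF populations, are shown for the same motifs. They are chr16:38458683-38458932 on the plus strand and chr16:45409054-45409303 on the minus strand, written 5′ to 3′ on the strand of the gene.
Cd80: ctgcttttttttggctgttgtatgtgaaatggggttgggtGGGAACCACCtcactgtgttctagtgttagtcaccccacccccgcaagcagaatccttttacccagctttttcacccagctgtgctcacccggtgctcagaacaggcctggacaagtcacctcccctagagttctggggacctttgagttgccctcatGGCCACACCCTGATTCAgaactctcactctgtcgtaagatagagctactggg
Cd200: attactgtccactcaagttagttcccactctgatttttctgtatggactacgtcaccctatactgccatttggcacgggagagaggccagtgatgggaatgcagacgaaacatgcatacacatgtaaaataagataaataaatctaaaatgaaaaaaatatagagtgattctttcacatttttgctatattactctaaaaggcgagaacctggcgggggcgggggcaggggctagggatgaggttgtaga
Cd80 had 2 NF-kappaB matches and an AP-1 match, TGATTCA, directly after the one nearer the start, and Cd200 had none of the 7 motifs. The RefSeq table held 6 of the 9 genes. The stretches of Icosl and Cd276 contained NF-kappaB matches only, in sequence with 68.8% and 77.6% G and C, where the median of all stretches was 52.4%.

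CD83 RNA separated all 3 populations and was lowest in GM-BMM. Cd83 measured 11.57 and 10.93 in GM-BMDC, 7.57 and 7.14 in GM-BMM, and 8.84 and 9.03 in M-BMM. No array of one population reached the range of another, and M-BMM stood between the populations grown with GM-CSF. GM-BMDC exceeded GM-BMM by 14.8-fold (log2 difference 3.89 ± 0.23, limma adjusted p = 0.000154), rank 22 from the top, and M-BMM by 4.97-fold (2.31 ± 0.23, limma adjusted p = 0.000689). GM-BMM was 2.98-fold lower than M-BMM (-1.58 ± 0.23, limma adjusted p = 0.00828), rank 81 from the bottom. Of all genes, 0.376% were lower in GM-BMM than in both other populations. The call between GM-BMM and M-BMM was lost without M-BMM replicate 1 or replicate 2 (limma adjusted p = 0.0793 and 0.108), where the log2 difference was -1.67 and -1.48.

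The gene of the ubiquitin ligase that CD83 opposes, Marchf1, was lower in GM-BMDC than in M-BMM. It measured 8.0 and 8.93 in GM-BMDC, 9.37 and 9.55 in GM-BMM, and 9.66 and 9.56 in M-BMM. Both GM-BMDC arrays were below all others. It was 2.21-fold lower in GM-BMDC than in M-BMM (-1.14 ± 0.27, limma adjusted p = 0.0265). Its difference from GM-BMM did not pass (-0.998 ± 0.27, limma adjusted p = 0.0602). Of 5 measured genes for ubiquitin ligases and partners of these surface proteins, 0 passed between GM-BMDC and GM-BMM, 0 between GM-BMM and M-BMM, and 3 were lower in GM-BMDC than in M-BMM (Marchf1, Marchf8 and Stub1). Marchf8 and Stub1, genes of further ubiquitin ligases, differed there by -0.46 (limma adjusted p = 0.0493) and -0.66 (limma adjusted p = 0.017). Cmtm6, whose product stabilises PD-L1, passed in none and ranged from 9.17 to 9.90.

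Cd200 was higher in both populations grown with GM-CSF than in M-BMM. Its signals were 8.85 and 7.70 in GM-BMDC, 7.41 and 7.47 in GM-BMM, and 4.82 and 5.305 in M-BMM. All 4 GM-CSF arrays lay more than 2 log2 units above both M-BMM arrays, of which replicate 1 was in the low range. GM-BMDC was 9.26-fold above M-BMM (3.21 ± 0.34, limma adjusted p = 0.00089), while GM-BMM was 5.19-fold above it (2.38 ± 0.34, limma adjusted p = 0.0075). Since the M-BMM mean of 5.06 is at the low mark, both folds rest on a value that may be background. GM-BMM over M-BMM lost its call without M-BMM replicate 1 or replicate 2 (limma adjusted p = 0.0994 and 0.0632). GM-BMDC minus GM-BMM was 0.83 (95% interval 0.04 to 1.63, limma adjusted p = 0.195). It passed with GM-BMDC replicate 2 left out, on 1 GM-BMDC array (1.41, limma adjusted p = 0.00949), and was 0.26 without replicate 1.

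B lymphocytes, which also carry CD200, CD80, CD86 and CD83, were represented by 6 measured markers. Of these, Cd79a, Ms4a1 and Ebf1 were higher in GM-BMDC than in GM-BMM and 0 were lower. Against M-BMM, 2 were higher in GM-BMDC and 1 was lower, Cd79b (-2.28, limma adjusted p = 0.00343). Cd22 had lower means in GM-BMDC than in GM-BMM (-0.62) and M-BMM (-0.68), without passing. Cd79a, part of the B cell receptor, measured 7.15 and 6.23 in GM-BMDC, 3.99 and 4.49 in GM-BMM, and 4.73 and 4.49 in M-BMM. Ms4a1, the gene of CD20, measured 6.87 and 6.14 in GM-BMDC, 4.91 and 4.66 in GM-BMM, and 4.98 and 5.34 in M-BMM. Both were higher in GM-BMDC replicate 1, the array of that pair with the higher Cd200, Cd80, Cd86, Cd83 and Pdcd1lg2. The summed linear signal of the markers was 973 and 544 in GM-BMDC, 534 and 636 in GM-BMM and 1520 and 1579 in M-BMM, where Cd79b (10.16 and 10.21) made up most of it. In GM-BMDC 0 of the 6 were in the low range, against 3 in each GM-BMM array and 3 and 2 in the M-BMM arrays. Macrophage markers summed to 8424 and 14745 in GM-BMDC, 25659 and 28445 in GM-BMM and 23749 and 23070 in M-BMM. The part of either cell type in these differences was not tested.

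Cd200r1, the receptor gene, passed in none of the comparisons. It measured 9.19 and 9.84 in GM-BMDC, 9.70 and 8.81 in GM-BMM, and 8.94 and 8.90 in M-BMM. GM-BMDC and GM-BMM overlapped, with gaps of 0.65 and 0.90 between their replicates, and the M-BMM arrays lay 0.04 apart. GM-BMDC minus GM-BMM was 0.26 (95% interval -0.46 to 0.98, limma adjusted p = 0.712), GM-BMDC minus M-BMM was 0.59 (95% interval -0.13 to 1.31, limma adjusted p = 0.271) and GM-BMM minus M-BMM was 0.33 (95% interval -0.39 to 1.05, limma adjusted p = 0.66). With both GM-CSF arrays numbered 1 left out, the log2 difference was 1.03 for GM-BMDC over GM-BMM and 0.91 for GM-BMDC over M-BMM. That fit holds 1 array of each GM-CSF population and takes its spread from the M-BMM arrays. In the arrays numbered 1, GM-BMDC lay below GM-BMM.

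**Figure D3:**
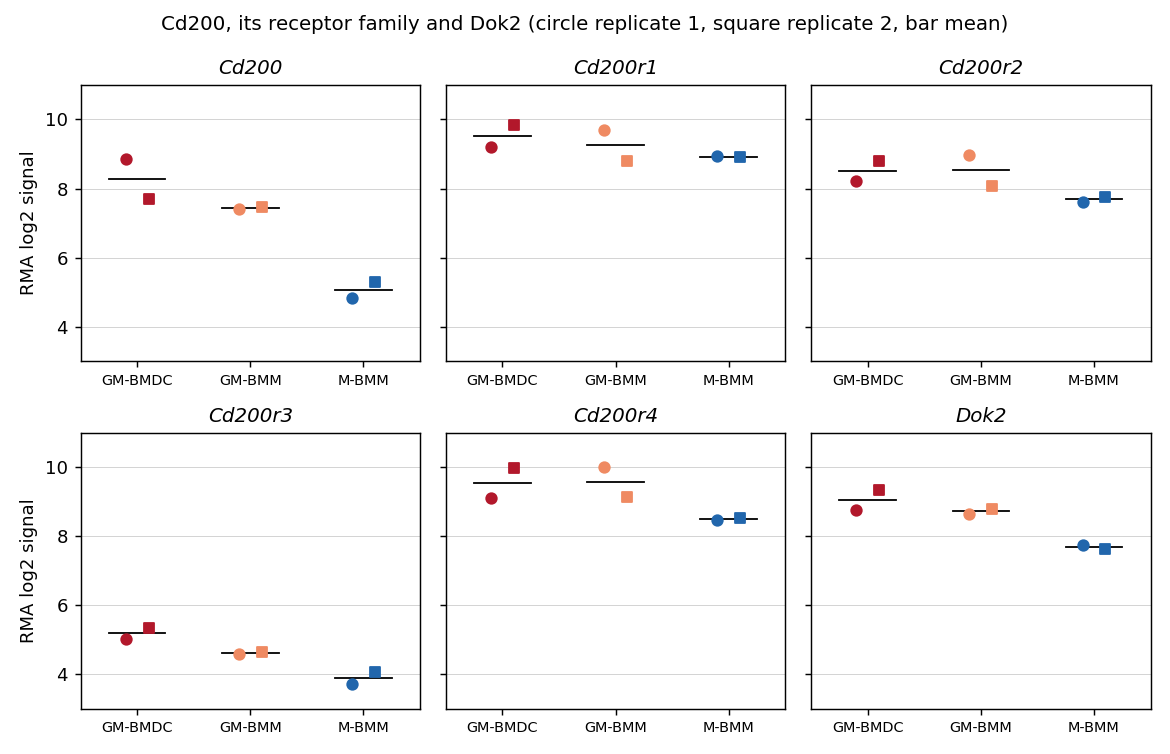
RMA log2 signal (vertical axis, common to all panels) of Cd200, the CD200 receptor family genes and the adaptor gene Dok2 in each array, with a circle for replicate 1, a square for replicate 2 and a bar for the mean. Cd200r1, Cd200r2 and Cd200r4 are highest in the second GM-BMDC and the first GM-BMM array. In every panel but that of Cd200r1, all GM-CSF arrays lie above both M-BMM arrays. Cd200, Cd200r3 and Dok2 passed by limma as higher in each GM-CSF population than in M-BMM, and Cd200r2 and Cd200r4 did not.

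Of the relatives of the receptor, Cd200r2 and Cd200r4 shared its replicate pattern and Cd200r3 did not. Cd200r2 measured 8.225 and 8.80 in GM-BMDC, 8.97 and 8.08 in GM-BMM, and 7.61 and 7.77 in M-BMM. Cd200r4, the neighbour of Cd200r1 in RefSeq, measured 9.12 and 9.99 in GM-BMDC, 10.02 and 9.14 in GM-BMM, and 8.47 and 8.53 in M-BMM. In Cd200r1 and in these genes, replicate 2 of GM-BMDC and replicate 1 of GM-BMM were the highest arrays. The summed linear signal of 8 neutrophil markers was 708 and 694 in GM-BMDC, 1358 and 609 in GM-BMM, and 837 and 721 in M-BMM. Within GM-BMM, the markers Mpo, Elane and Camp were lower in replicate 1. The part of such cells in the replicate pattern was not tested. Over the 6 arrays the Pearson r was 0.909 between Cd200r1 and Cd200r2, 0.892 between Cd200r1 and Cd200r4, and 0.989 between Cd200r2 and Cd200r4. With Cd200r3 it was 0.634 for Cd200r1, 0.732 for Cd200r2 and 0.762 for Cd200r4. These are similar genes of one family, so probes of one may bind RNA of another, and their separate levels are uncertain. Of 7 measured genes of this family and its adaptors, 0 passed between GM-BMDC and GM-BMM. Cd200r3 and Dok2 were the 2 that passed as higher in each GM-CSF population than in M-BMM. Dok2 measured 8.77 and 9.35 in GM-BMDC, 8.66 and 8.79 in GM-BMM, and 7.75 and 7.63 in M-BMM. It was 2.57-fold above M-BMM in GM-BMDC (log2 difference 1.36 ± 0.19, limma adjusted p = 0.00281) and 2.04-fold in GM-BMM (1.03 ± 0.19, limma adjusted p = 0.0208). Cd200r3, the gene of an activating relative, was low in 5 of 6 arrays, with 5.01 and 5.35 in GM-BMDC, 4.58 and 4.66 in GM-BMM, and 3.71 and 4.06 in M-BMM.

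The partners of these ligands were read from 9 lists, of which 73 genes were measured. Over all of them, 14 were called higher and 11 lower in GM-BMDC than in GM-BMM, where 10.4% of all genes were called. The counts were 20 and 15 in GM-BMDC against M-BMM (16.7% of all genes called) and 4 and 4 in GM-BMM against M-BMM (6.19%). Median log2 differences were 0.06, 0.04 and -0.07 in that order. The same shares of all genes stand beside the counts of each list. The lists were chosen with earlier results of these data known. Receptors that T cells use for B7 ligands had 4 measured genes, of which Icos and Pdcd1 were higher in GM-BMDC than in each macrophage population. Icos, the gene of the receptor for ICOS ligand, measured 8.18 and 6.92 in GM-BMDC, 5.31 and 5.31 in GM-BMM, and 5.79 and 5.42 in M-BMM. It was 4.72-fold above GM-BMM in GM-BMDC (log2 difference 2.24 ± 0.36, limma adjusted p = 0.00859) and 3.85-fold above M-BMM (1.95 ± 0.36, limma adjusted p = 0.00982). Pdcd1, the gene of PD-1, was 1.77-fold above GM-BMM (0.82 ± 0.14, limma adjusted p = 0.0105). Icos and Pdcd1 lay under the array medians in both macrophage populations, so these folds may rest on background. Cd28 and Ctla4 passed in none, and Ctla4 was between 4.70 and 5.14. Of 7 T and NK lymphocyte markers, 0 were called by limma in any of the 3 comparisons.

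**Figure D4:**
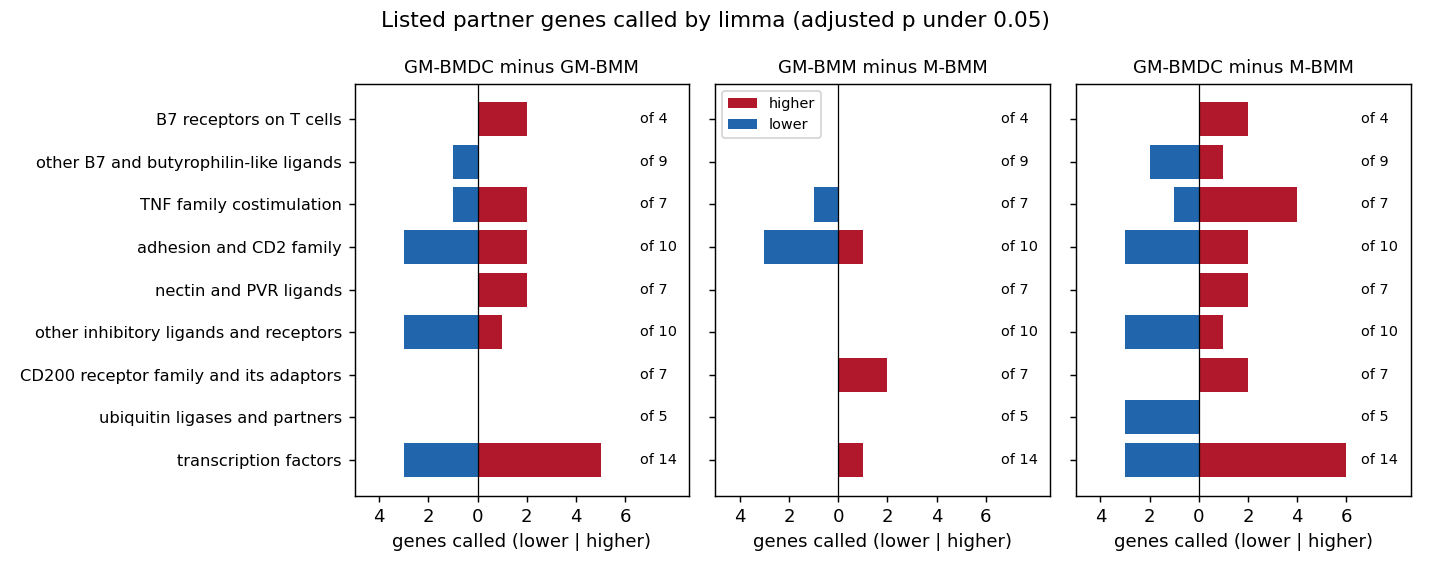
Number of genes called by limma (horizontal axis, lower to the left and higher to the right of 0) in 9 lists of partner genes for the 3 comparisons. The transcription factor list, with 14 measured genes, has 5 genes higher in GM-BMDC than in GM-BMM and 3 lower, and 1 and 0 in GM-BMM against M-BMM.

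Other ligand families moved in both directions. Of 7 genes of the TNF family with costimulatory roles, 2 were called higher and 1 lower in GM-BMDC than in GM-BMM, 4 and 1 in GM-BMDC against M-BMM, and 0 and 1 in GM-BMM against M-BMM. Tnfsf4, the gene of OX40 ligand, measured 8.245 and 7.07 in GM-BMDC, 5.30 and 4.75 in GM-BMM, and 5.85 and 5.43 in M-BMM, and was 6.21-fold higher in GM-BMDC than in GM-BMM (log2 difference 2.63 ± 0.37, limma adjusted p = 0.00505). Its GM-BMM mean of 5.02 is under the low mark, so that fold rests on a value that may be background. Cd40, the receptor through which helper T cells license dendritic cells, was 3.51-fold above GM-BMM (1.81 ± 0.33, limma adjusted p = 0.0137) and 4.72-fold above M-BMM (2.24 ± 0.33, limma adjusted p = 0.00359). Tnfrsf14, the gene of the BTLA ligand HVEM, was 2.91-fold lower in GM-BMDC than in M-BMM (-1.54 ± 0.21, limma adjusted p = 0.00266). Of 9 genes listed with other B7 and butyrophilin-like ligands, 0 were called higher and 1, the TREM-like Treml2, lower in GM-BMDC than in GM-BMM. The counts of that list were 1 and 2 in GM-BMDC against M-BMM, and 0 and 0 in GM-BMM against M-BMM. Vsir, the gene of the inhibitory B7 relative VISTA, measured 8.79 and 10.16 in GM-BMDC, 10.68 and 10.82 in GM-BMM, and 11.22 and 11.28 in M-BMM. It was 3.43-fold lower in GM-BMDC than in M-BMM (-1.78 ± 0.37, limma adjusted p = 0.0174), the opposite direction to Cd80 and Cd86. Treml2, a TREM-like receptor gene of myeloid cells, was 2.07-fold lower in GM-BMDC than in GM-BMM (-1.05 ± 0.19, limma adjusted p = 0.0139). Btn1a1, a butyrophilin gene, was in the low range in every array.

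Of 10 adhesion and CD2 family genes, 2 were called higher and 3 lower in GM-BMDC than in GM-BMM, 2 and 3 in GM-BMDC against M-BMM, and 1 and 3 in GM-BMM against M-BMM. Slamf1, the gene of a self-binding receptor, was 9.83-fold above GM-BMM in GM-BMDC (log2 difference 3.30 ± 0.28, limma adjusted p = 0.000647). Its relative Slamf6 was highest in GM-BMM, at 9.24 and 9.08 against 6.42 and 6.30 in M-BMM (2.79 ± 0.17, limma adjusted p = 0.000169), and Ly9 was 5.04-fold lower in GM-BMDC than in M-BMM (-2.33 ± 0.14, limma adjusted p = 9.45e-05). Of 7 nectin and PVR genes, 2 were called higher and 0 lower in GM-BMDC than in GM-BMM, 2 and 0 in GM-BMDC against M-BMM, and 0 and 0 in GM-BMM against M-BMM. Nectin1, an adhesion gene, was 3.4-fold above GM-BMM in GM-BMDC (1.77 ± 0.15, limma adjusted p = 0.0007), and Cd226, an activating receptor gene, 2.25-fold (1.17 ± 0.14, limma adjusted p = 0.00255). Of 10 other inhibitory genes, 1 were called higher and 3 lower in GM-BMDC than in GM-BMM, 1 and 3 in GM-BMDC against M-BMM, and 0 and 0 in GM-BMM against M-BMM. Lair1, the gene of an inhibitory collagen receptor, measured 6.97 and 7.73 in GM-BMDC, 9.26 and 9.88 in GM-BMM, and 10.09 and 10.05 in M-BMM, 6.59-fold lower in GM-BMDC than in M-BMM (-2.72 ± 0.28, limma adjusted p = 0.000731). Btla, the gene of an inhibitory receptor and the neighbour of Cd200 in RefSeq, was 3.17-fold above GM-BMM in GM-BMDC (1.66 ± 0.16, limma adjusted p = 0.000954), and Lgals9, the gene of galectin-9, 2.12-fold lower (-1.08 ± 0.12, limma adjusted p = 0.00165). In GM-BMM, Slamf1, Nectin1, Cd226 and Btla lay under the array medians, so their folds over GM-BMM may rest on background.

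Of 14 measured transcription factors known to act on these genes, 5 were called higher and 3 lower in GM-BMDC than in GM-BMM, 6 and 3 in GM-BMDC against M-BMM, and 1 and 0 in GM-BMM against M-BMM. Irf4, a factor of dendritic cells and alternatively activated macrophages, measured 10.39 and 9.97 in GM-BMDC, 8.34 and 7.19 in GM-BMM, and 5.36 and 5.45 in M-BMM. It was 27.3-fold above M-BMM in GM-BMDC (log2 difference 4.77 ± 0.34, limma adjusted p = 0.000199) and 5.13-fold in GM-BMM (2.36 ± 0.34, limma adjusted p = 0.00741). The M-BMM signals of Irf4 lay under the array medians, so both folds may rest on background. The NF-kappaB subunit gene Rel was 2.86-fold above GM-BMM in GM-BMDC (1.52 ± 0.20, limma adjusted p = 0.00374), and Fos, part of AP-1, 3.83-fold lower (-1.94 ± 0.40, limma adjusted p = 0.024).

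**Figure D5:**
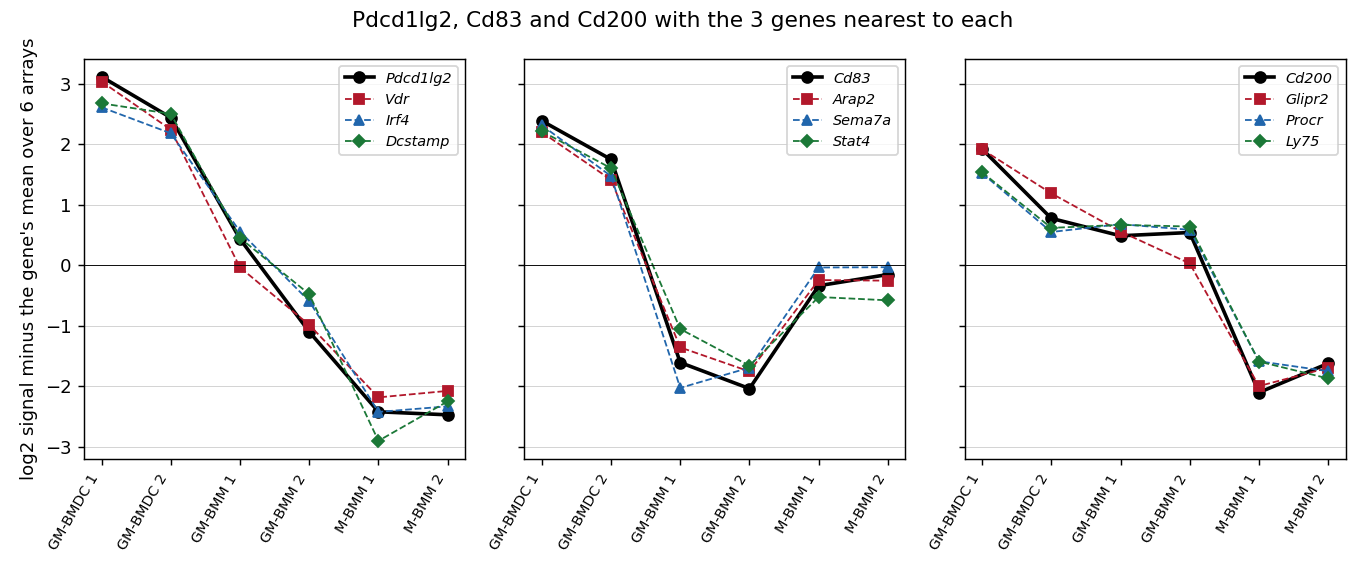
Log2 signal minus each gene's mean over the 6 arrays (vertical axis) for Pdcd1lg2, Cd83 and Cd200 (black) and for the 3 genes nearest to each by root mean square distance, with lines that only join the points of a gene. Irf4 runs with Pdcd1lg2 at a distance of 0.32 log2 units, and Arap2, Sema7a and Stat4 are, like Cd83, lower in GM-BMM than in M-BMM.

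The genes with the most similar profiles were found by the root mean square distance between centred log2 values of the 6 arrays, which share groups, so the correlations only describe. Pdcd1lg2 was nearest to the vitamin D receptor gene Vdr (distance 0.286, Pearson r 0.995), Irf4 (0.32, r 0.994) and Dcstamp, a gene of cell fusion (0.38, r 0.985). Vdr, like Pdcd1lg2, had the higher of its GM-BMM values in replicate 1 (7.72 and 6.77). Cd83 was nearest to Arap2 (0.227, r 0.998), the semaphorin gene Sema7a (0.283, r 0.985) and Stat4 (0.346, r 0.983). Arap2 measured 9.63 and 8.85 in GM-BMDC, 6.08 and 5.68 in GM-BMM, and 7.19 and 7.18 in M-BMM, the order that Cd83 had. Cd200 was nearest to Glipr2 (0.275, r 0.981), Procr, the gene of the endothelial protein C receptor (0.298, r 0.984), and Ly75, the gene of the endocytic receptor DEC-205 (0.3, r 0.98). Cd80 was nearest to B3gnt5, Kit and Pla1a at distances of 0.105 to 0.162, and Cd86 to Ceacam15, Nedd4 and Tmtc2 at 0.0809 to 0.142. Icosl was nearest to Rgs12, H2az1 and Siglecg (0.0529 to 0.0657), and Cd274 to Gem, Tmem63b and Cdk6 (0.0834 to 0.12). The search covered the 7 genes called in any comparison, not Cd276 and Cd200r1, and none of the 9 genes was among the 3 nearest of these 7.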

How the data were processed

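RNA of 6 samples was hybridised to 1 array each, from 300 ng of total RNA. The deposited values are log2 signals, which the authors made with Affymetrix Expression Console 1.1 and RMA, per the submitters' processing notes. RMA corrects background, normalizes arrays to each other and summarises probes, and tends to compress the folds of weak probes. The array annotation gave 1 gene for 21789 of 35556 probe sets, several for 1621 and none for 12146. Per gene the probe set with the highest mean was kept, leaving 19938 genes.

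Groups followed the sample titles. The 3 comparisons were fitted together (limma 3.58.1, R 4.3.3, 3 residual and 4.34 prior degrees of freedom), with no filter or pseudocount. Permuting 2 against 2 arrays cannot give p below 0.333. The small number of arrays limits the precision, and a read depth does not apply to arrays. On simulated data with 200 of 19938 genes changed, the fit found 73.5% (GM-BMDC against GM-BMM), 75.5% (GM-BMDC against M-BMM) and 75% (GM-BMM against M-BMM) at 2-fold, and 97.5%, 99% and 98% at 4-fold. The simulated errors were independent, of equal spread in all populations and drawn from the variance model of the fit itself. These rates therefore do not give the power of the real arrays. Deviations of arrays with the same number from their group means correlated at 0.02, -0.13 and 0.03 in that order. Eif2s3y was low in replicate 1 of both GM-CSF populations, and whether arrays of the same number share donors was not tested.

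The 9 genes and the lists were chosen with earlier results of these data known. Named were the 9 genes, up to 3 called genes of each partner list with the largest difference, the 3 nearest genes of each of the 9 that was called anywhere, the sort gate genes and markers beside a result. Cmtm6, Cd28, Ctla4, Cd200r2 and Cd200r4 were named after their values were seen. Promoter stretches are from RefSeq (GRCm38.p6), and figures were drawn with matplotlib 3.10.9. Alternatives left out arrays, or changed the replicate block, groups, variance, filter, scaling, probe set, features tested, moderation or a Y-linked covariate.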

Additional observations from a re-analysis of the deposited data

How the results depend on the processing

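The 27 differences and the 3 counts were recomputed under 18 alternatives, of which the block with crossed M-BMM numbers was chosen after seeing the data. Of the 15 called differences, 0 changed direction. Without moderation 0 of the 9 genes passed by limma in each comparison, where 0, 17 and 8 of all genes did for GM-BMDC against GM-BMM, GM-BMDC against M-BMM and GM-BMM against M-BMM, and 3686, 4628 and 3075 had an unadjusted p under 0.05. With all probe sets tested 2 passed in GM-BMM against M-BMM. Leaving out 1 array at a time gave 5 to 6, 6 to 7 and 0 to 4 calls in the same order, with 0 without either M-BMM array. The replicate number as a block left 5, 6 and 4 calls, as did crossed numbers, and changed no call. A Y-linked covariate left 5, 6 and 3, with Cd274 lost.

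Only differences that had not passed changed direction, 16 values in 6 differences. Leaving out 1 array at a time, Cd200r1 ranged over -0.19 to 0.71 in GM-BMDC against GM-BMM and -0.12 to 0.78 in GM-BMM against M-BMM. In GM-BMM against M-BMM Cd80 ranged over -0.32 to 0.34, Cd86 over -0.34 to 0.12 and Icosl over -0.11 to 0.20, and Cd276 over -0.0027 to 0.22 in GM-BMDC against M-BMM. Without both GM-CSF arrays numbered 1 the values were -0.32 for Cd80, -0.11 for Icosl and -0.12 for Cd200r1 in GM-BMM against M-BMM and -0.0027 for Cd276 in GM-BMDC against M-BMM. For GM-BMM against M-BMM, Cd80 was -0.024 with arrays centred on their medians, and with the Y-linked covariate Cd80 was -0.404 and Icosl -0.0484. The cause was not tested.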
